A study of Sus scrofa with 12 samples.

Results

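Hampshire loin was represented by 4 of the 12 degradome libraries of the series, the 4 tables whose labels give Hampshire as the breed, and these were set against the 8 tables of the other 2 breeds, 4 Pietrain and 4 Polish Large White. All 12 animals were female pigs, housed alike, recorded at day 180 and slaughtered at 100 ± 2 kg, and RNA of integrity number above 7 was taken from the loin. Each breed had 2 libraries titled low MM, with light shear force in the labels, and 2 titled high MM, with heavy shear force. What MM stands for is left unexplained by the labels, though muscle mass is the subject of the series title. Each library is labelled as a separate sample, so that the p-values below measure the spread between these libraries.

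Degradome sequencing (parallel analysis of RNA ends) captures the 5′ ends left when a transcript is cut, and the PAREsnip program lists the ends that lie where a small RNA could have directed the cut. Loin is a fast, glycolytic muscle, whose fibres break glycogen down to glucose phosphates and run them through glycolysis to make ATP. Hampshire pigs are known in animal breeding for a high glycogen content of muscle, which in many of them goes back to a variant of PRKAG3, the gene of a regulatory subunit of AMP-activated protein kinase. The labels give no genotype. In these tables a gene is either listed or unlisted, and an unlisted gene was not measured at 0. PRKAG3 was not listed in any of the 12 tables.

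Few targets recurred across the 4 Hampshire tables. Of 1416 target genes in the series, 597 were listed in a Hampshire table (42.2% of all targets), 8 of them in all 4 tables (0.565%), 24 in at least 3 (1.69%), 71 in at least 2 (5.01%) and the rest in 1. The 8 other tables listed 988 genes (69.8%). Genes in at least 2 tables of their own breed were 11.9% of those listed in Hampshire, 14.4% of 596 in Pietrain and 10.5% of 543 in Polish Large White. A total of 428 genes were listed in Hampshire tables alone (30.2%), but only 16 of these came up in 2 Hampshire tables (1.13%) and none in 3 or 4. Pietrain had 30 such genes and Polish Large White 14.

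No gene passed the test of presence in Hampshire against the other breeds. Of 308 genes listed in 2 to 11 tables, 0 (0%) had an adjusted p at or under 0.05 by the exact permutation (Fisher) test of the Hampshire label over all its placements, with Benjamini-Hochberg adjustment. The count at an unadjusted p under 0.05 was also 0. The smallest p the design allows is 0.00202, and 13 genes listed in every Hampshire table and no other would have been needed before any of them passed. The likeness of tables within Hampshire did not pass a test against that across breeds either. The mean Jaccard index of target sets (shared over joint targets) was 0.0775 ± 0.0339 over the 6 Hampshire pairs and 0.0657 ± 0.0214 over the 32 pairs of a Hampshire table with another (SD; exact permutation p = 0.285, two-sided). The difference was 0.0118. On leaving out each of the 12 libraries in turn it ran from 0.00210 to 0.0331, with unadjusted exact permutation p from 0.00606 to 0.927. The largest difference and smallest p came without high MM replicate 2, the Hampshire table with most targets.

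The number of targets was 130 and 207 in the low MM and 99 and 264 in the high MM Hampshire tables. In the 8 other tables it ran from 99 through a median of 151 to 301. The means were 175 ± 74.7 in Hampshire (n = 4) and 166 ± 67.4 in the other breeds (SD, n = 8), a difference within the spread of the libraries (exact permutation p = 0.842, two-sided, adjusted p = 0.986 over 8 measures per library). Hampshire tables held 2031 and 2640 rows (low MM) and 962 and 2458 rows (high MM), against 699 to 2949 in the others (p = 0.265, adjusted p = 0.908, exact permutation).

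**Figure D1:**
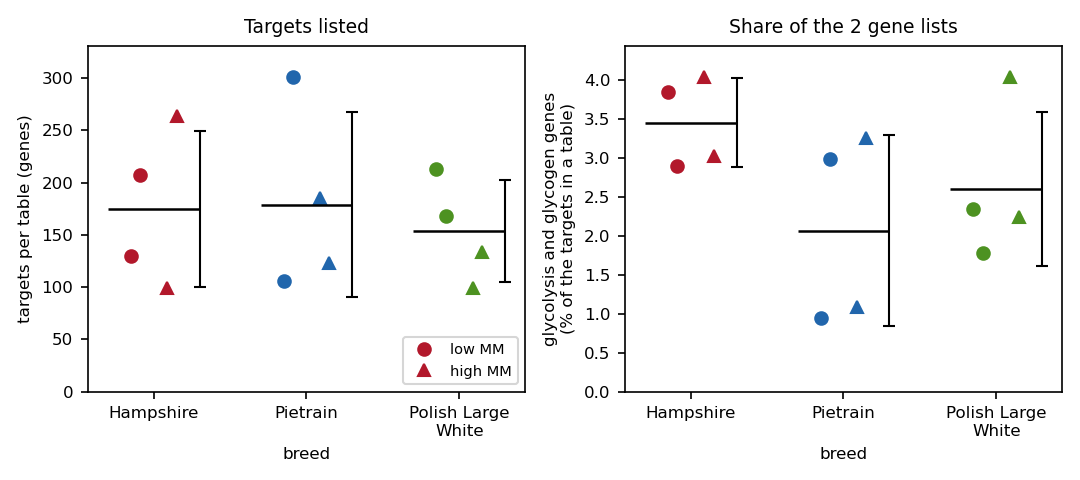
Targets per table (left, genes) and the share of those targets that belong to the glycolysis and glycogen lists (right, %), by breed. Points are libraries (circles low MM, triangles high MM), lines are breed means and bars 1 SD on each side (n = 4). The Hampshire shares sit between 2.90 and 4.04%, and the breeds overlap in both panels.

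The rows behind these listings differed in depth. The ratio of normalized to weighted fragment abundance, the authors' own columns, takes 1 or 2 constant values within a table. Its scale is not given in the files, so the read depth is unknown. If the normalization divides by the amount of sequence, a smaller ratio stands for more sequence behind a row. In Hampshire low MM replicate 1 it was 0.557 in 924 rows and 0.0748 in 1107 rows, and in low MM replicate 2 it was 0.472 in 1028 rows and 0.0638 in 1612. Both high MM tables had a shallow ratio alone, 0.407 in the 962 rows of replicate 1 and 0.417 in the 2458 rows of replicate 2. Rows under 0.15 are called deeper here. Rows of unnamed small RNAs, which are numbered per table, made up 8.86 and 25.2% of the low MM and 14.6 and 47.7% of the high MM Hampshire tables.

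The shallow ratios of Hampshire were larger than those of the other breeds, which ran from 0.237 to 0.360, and so were the deeper ones, at 0.0638 and 0.0748 against 0.0306 to 0.0621. Neither class overlapped between Hampshire and the others. Read as above, Hampshire rows rested on less sequence than rows of the same class elsewhere, and its part in the listings was not tested. Within Hampshire the deeper rows stood in the low MM tables alone, so that MM and depth cannot be told apart there. The 2 classes of 1 table did not repeat each other closely. In low MM replicate 1 the interactions found in both classes were 36, which is 21.4% of the deeper and 73.5% of the shallower ones, and in low MM replicate 2 they were 25, or 10.2% and 44.6%.

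**Figure D2:**
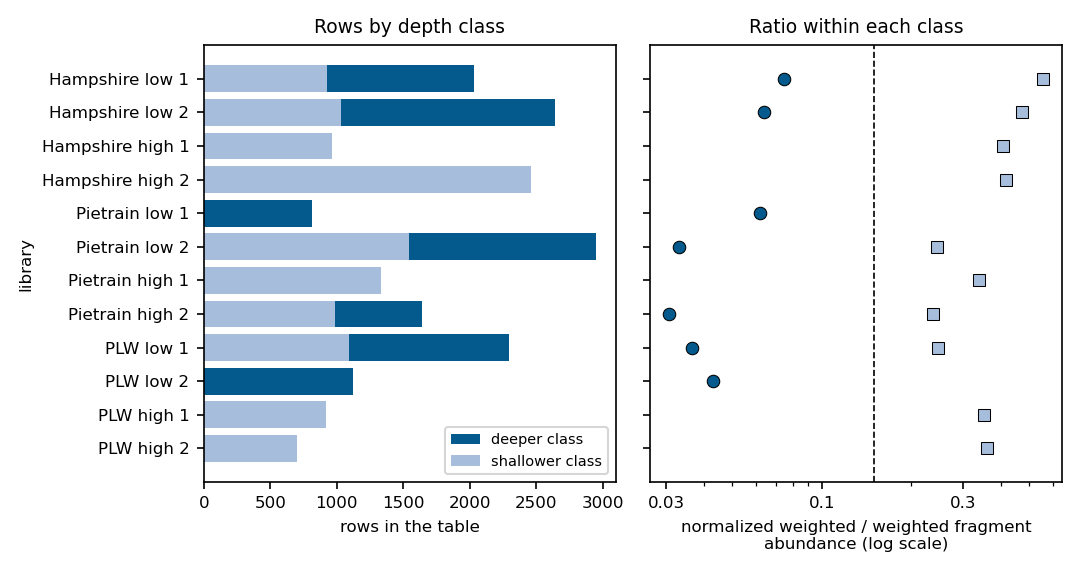
Rows per table by depth class (left) and the ratio of normalized to weighted fragment abundance in each class (right, log scale, dashed line at 0.15). Deeper rows occur in both Hampshire low MM tables and in neither Hampshire high MM table.

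Of the 8 genes listed in all 4 Hampshire tables, 3 were also in all 8 others. These were PPP1R2, inhibitor 2 of protein phosphatase 1, CA3, a muscle carbonic anhydrase, and the thin-filament tropomyosin gene TPM1. CYTB, the mitochondrially encoded cytochrome b, and FKBP5, a partner of HSP90 in steroid receptor complexes, were in 6 of the 8 others each. ACTA1, skeletal muscle actin, was in 5 and COX1, the mitochondrially encoded subunit 1 of cytochrome oxidase, in 4.

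TFCP2, a transcription factor, stood furthest from the other breeds among them, in 4 of 4 Hampshire and 2 of 8 other tables (both Pietrain; exact permutation p = 0.0606, adjusted p = 0.964). It was also the thinnest of the 8, with 5 rows in Hampshire. In 3 tables the listing was a miR-4331-5p cut and in low MM replicate 2 another position under an unnamed small RNA. Its fragments were listed with 807 to 1700 matching positions.

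For 7 of these 8 genes, all but TFCP2, the same named cut, taken as window start plus cleavage position, stood in all 4 Hampshire tables. In CA3, ACTA1, COX1 and CYTB these cuts had medians of 31 to 66 matching positions (fragment abundance over weighted abundance), and in PPP1R2, FKBP5 and TPM1 they were miR-4331-5p cuts with medians of 1275 to 1704. In CA3 the miR-378 cut on chromosome 4 (51227536, in the files' coordinates, whose build is not given) was listed in 29 and 27 windows in the low MM and 25 and 20 windows in the high MM Hampshire tables, and in 6 of 8 others. Its highest normalized abundance was 0.0714 and 0.0944 in the low MM and 0.00884 and 0.0265 in the high MM Hampshire tables, against 0.0215 to 0.0705 in those 6, and the ranges overlap. In ACTA1 the miR-129a-5p cut on chromosome 14 (60414250) was listed in 1 and 11 windows in the low MM and in 34 and 21 in the high MM tables, and in 5 of 8 others. In COX1 the miR-143-3p cut (mitochondrial position 7540) had 47 and 24 windows in the low MM and 46 and 31 in the high MM tables, and was in 3 of 8 others (exact permutation p = 0.0808, adjusted p = 0.857).

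CYTB carried a pair of cuts in all 4 Hampshire tables. The cut of miR-206, a microRNA made in skeletal muscle, at mitochondrial position 16421 had a highest normalized abundance of 0.684 and 0.504 in the low MM and 0.0361 and 0.235 in the high MM Hampshire tables, against 0.00779 to 0.197 in the 6 other tables that list it. The ranges overlap, and 3 Hampshire tables, all but high MM replicate 1, lie above every other table. The second CYTB cut, of miR-1343 at 16219, was the named cut that leaned most to Hampshire. It stood in 4 of 4 Hampshire tables and 1 of 8 others, Pietrain high MM replicate 2.

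The miR-1343 cut was listed in 52 and 45 windows in the low MM and 32 and 41 windows in the high MM Hampshire tables, against 9 windows in that Pietrain table. Its highest normalized abundance was 0.0591 and 0.0358 in the low MM and 0.00625 and 0.0385 in the high MM Hampshire tables, and 0.0421 in the Pietrain table. The presence groups overlap by that 1 table only, with an exact permutation p of 0.0101, and it failed adjustment over 204 named cuts (adjusted p = 0.857). It was the only named cut with an unadjusted p under 0.05 in the direction of Hampshire (0.49% of 204), and 0 passed adjustment (0%).

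PAREsnip grades ends from 0, the strongest, to 4, a single fragment, and here the category was 2 or 3 in 3 Hampshire tables and 4 in high MM replicate 1, where the fragment abundance was 1. miR-1343 itself was listed against any transcript in all 4 Hampshire tables and 3 of the 8 others. A table lists a microRNA only where a cut is found, so its level in the muscle was not measured.

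**Figure D3:**
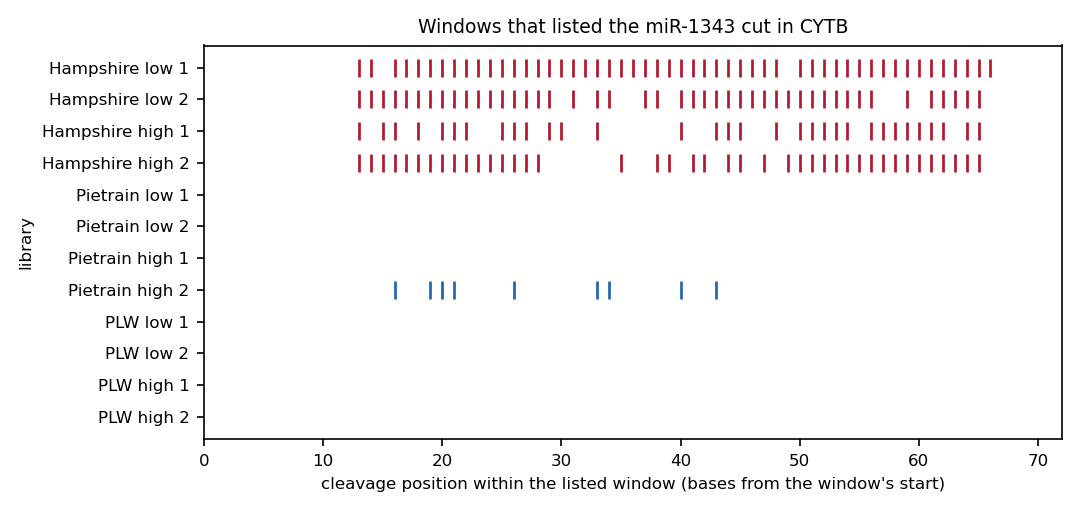
Windows that listed the miR-1343 cut in CYTB, by the cleavage position inside the window (x axis, bases from the window's start) and library (y axis). Every mark is 1 window and all marks are the same cut, with 52, 45, 32 and 41 windows in the Hampshire tables and 9 in Pietrain high MM replicate 2.

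Each cut can be listed in many overlapping windows of a transcript, and counting windows rather than cuts gave other totals. Of 1288 named windows in 2 to 11 tables, 70 leaned to Hampshire (5.43%) and 2 away from it (0.155%) at an unadjusted p under 0.05, and 0 (0%) passed adjustment, with a smallest adjusted p of 0.137 (exact permutation, Benjamini-Hochberg). There were 19 windows in all 4 Hampshire tables and no other. Of these, 18 were the miR-1343 cut in CYTB and 1 was the miR-143-3p cut in COX1, both of which other tables list in other windows. The largest cleavage position was 66 in every Hampshire table and 69 to 71 in the 8 others, so the windows themselves were not placed alike. Its part in the window counts was not tested.

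PPP1R2, FKBP5, TPM1 and TFCP2 shared miR-4331-5p. PPP1R2 was listed in the 4 Hampshire tables by miR-4331-5p alone, at chromosome 13 position 132460444, and its fragments had 1275 to 1725 matching positions. Its highest normalized abundance was 0.0150 and 0.0127 in the low MM and 0.0162 and 0.0327 in the high MM Hampshire tables. Most miR-4331-5p rows of FKBP5 and TPM1 had fragments of as many matching positions. The largest values of these genes did not rest on those fragments. In high MM replicate 2, TPM1 reached 1.67 in 2 rows of category 0 with 5 matching positions, and FKBP5 reached 0.224 in 6 rows with 112, while their rows with 1275 matching positions stood at 0.0327. Of the 71 genes in at least 2 Hampshire tables, 18 had a miR-4331-5p row in every table that lists them, against 29 of 86 in Pietrain and 18 of 57 in Polish Large White. TPM1 also had cuts of miR-376a-3p in low MM replicate 1 and of miR-196a in low MM replicate 2, and its highest normalized abundance was 0.0198 and 0.0174 in the low MM and 0.0162 and 1.67 in the high MM tables. A fragment with 1275 or more matching positions cannot be assigned to 1 of the genes.

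Recurrence of a gene was mostly recurrence of a position. Of the 71 genes in at least 2 Hampshire tables, 51 had the same position in at least 2 of them (71.8%), and 44 had it under the same named microRNA. The shares at the same position were 74.4% of 86 genes in Pietrain and 59.6% of 57 in Polish Large White. With at most 100 matching positions 44 of the 71 stayed listed in at least 2 Hampshire tables, and with at most 10 only 7. Category 0 or 1 was reached in at least 2 Hampshire tables by 5 genes.

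**Figure D4:**
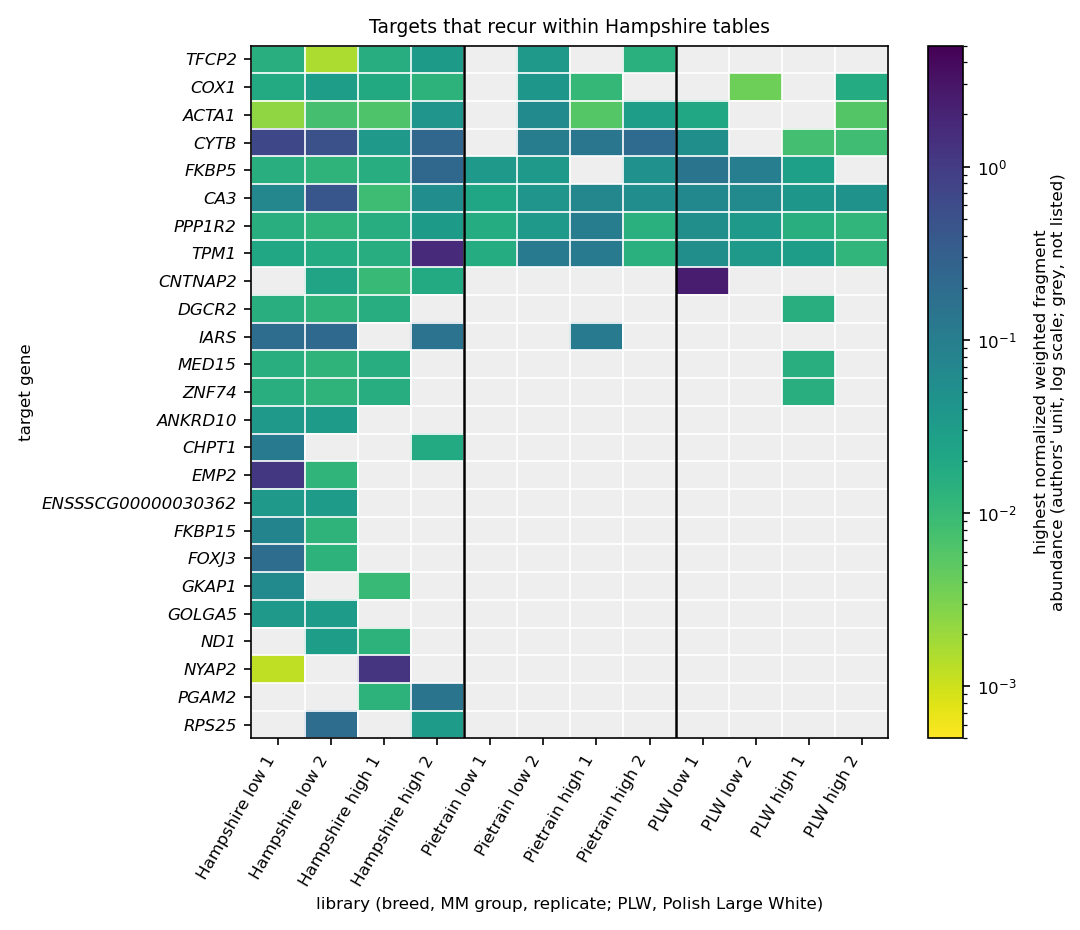
Genes listed in all 4 Hampshire tables, in 3 with at most 1 other, or in 2 with no other (12 by the naming rule), by library. Colour is the highest normalized weighted fragment abundance (authors' unit, log scale) and grey is unlisted. The 8 genes at the top fill all Hampshire columns, and each also has a coloured cell outside Hampshire.

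Genes in 3 Hampshire tables and 1 other were IARS, CNTNAP2, MED15, DGCR2 and ZNF74 (exact permutation p = 0.0667 each, adjusted p = 0.964). IARS, the cytosolic isoleucyl-tRNA synthetase, had the lowest categories and fewest matching positions of these, but no named cut of it was in more than 1 Hampshire table. Its highest normalized abundance was 0.187 and 0.213 in the low MM tables, both at chromosome 3 position 41946075 in the deeper class, with 8 and 6 matching positions and categories from 1 and 0. In high MM replicate 2 it was listed at another position, with 889 matching positions. MED15, a Mediator subunit, DGCR2 and ZNF74 shared 1 miR-4331-5p cut with 1507 to 1704 matching positions in Hampshire and count as 1 observation, and the gene table pairs the ZNF74 identifier with DGCR2. CNTNAP2, a neurexin-family adhesion protein, was listed at a different position in each table.

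The other genes in 3 Hampshire tables were in 2 or more tables of the other breeds. COX7A1, the muscle form of a cytochrome oxidase subunit, had the same pair of miR-338-5p cuts on chromosome 6 (45519354 and 45519706) in 3 Hampshire and 3 other tables. The normalized abundance was 0.00170 and 0.00467 in the low MM tables and 0.0186 in high MM replicate 2 of Hampshire, against 0.000712, 0.00103 and 0.00235 in the others. The highest of these rested on rows of the shallower class, against a table median of 0.0177. The rest were deeper rows, each under the median of the deeper rows of its table (0.0123 to 0.0337). Hampshire had the larger ratios in both classes, and their part in these values was not tested. The presence of the cut did not pass the test (exact permutation p = 0.545, adjusted p = 0.857).

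Among the 16 genes in 2 Hampshire tables and no other (p = 0.0909 each by exact permutation, adjusted p = 0.964), the naming rule gives 12. PGAM2, FOXJ3, ANKRD10, ND1 and RPS25 had the same named cut in both tables. FOXJ3, a forkhead transcription factor, had the miR-127 cut at chromosome 6 position 169134065 in both low MM tables with a median of 3 matching positions, the fewest of these cuts, in category 4. ANKRD10 had the miR-574-3p cut in both low MM tables, in rows of the deeper class alone. ND1, a mitochondrially encoded subunit of complex I, had a miR-500 cut with 1 window in each of 2 tables. RPS25, a protein of the small ribosomal subunit, had a miR-4331-5p cut with a median of 25 matching positions.

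The others of the 12 had unequal support. GOLGA5, a Golgi golgin, and the gene ENSSSCG00000030362 had the same normalized abundance as each other in each low MM table, 0.0356 in replicate 1 and 0.0319 in replicate 2, under unnamed small RNAs with 42 and 80 matching positions. EMP2, NYAP2, CHPT1, FKBP15 and GKAP1 were listed at a different position in each table. The highest normalized abundance of EMP2, an epithelial membrane protein, was 1.11 in low MM replicate 1 and 0.0120 in low MM replicate 2. For NYAP2 it was 1.25 in high MM replicate 1 and 0.00123 in low MM replicate 1. CHPT1 makes phosphatidylcholine, and its values were 0.115 in low MM replicate 1 and 0.0177 in high MM replicate 2.

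Glycolysis and glycogen genes were listed in every Hampshire table. Of 71 genes on the lists, 18 were listed anywhere. Hampshire tables held 13 of the 18, against 42.2% of all targets, and the 8 other tables held 14, against 69.8% of all targets. Of 10 glycolysis genes 9 were in Hampshire and 6 in the other tables, and of 8 glycogen genes 4 were in Hampshire and all 8 in the other tables. None passed the presence test (0 of 10 tested, against 0% of all 308 genes). In at least 2 Hampshire tables there were 7 of the 18, against 5.01% of all targets, and in at least 2 of the 8 others also 7 of the 18, against 14.7% of all targets. Over the 18 genes the median number of tables was 1 in Hampshire and 1 in the other breeds, and over all targets 0 and 1. No test of the lists was made.

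As a share of the targets in a table, the lists made up 3.85 and 2.90% in the low MM and 4.04 and 3.03% in the high MM Hampshire tables. In the 8 others they ran from 0.943 through a median of 2.29 to 4.04%. The means were 3.45 ± 0.573% in Hampshire (n = 4) and 2.33 ± 1.07% in the other breeds (SD, n = 8), and the ranges overlap. In rows of categories 0 to 2 the shares were 4.35, 1.87, 6.82 and 6.67% in the Hampshire tables (low MM, then high MM). They were 0 to 2.90% in the others, and 2 to 4 genes stood behind each Hampshire value. These genes are not all separate observations. ALDOA and GPI in high MM replicate 1, and ENO3 and GPI in low MM replicate 1, shared an unnamed small RNA and an equal normalized abundance. The shares count them separately. In rows of the shallower class the means were 3.47% in Hampshire and 2.98% in the 6 other tables that have such rows. All these shares count PPP1R2 where it is listed. Over all rows but without PPP1R2, they were 3.08 and 2.42% in the low MM and 3.03 and 2.65% in the high MM Hampshire tables. The 8 others then ran from 0 to 3.03%, and the ranges overlap.

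**Figure D5:**
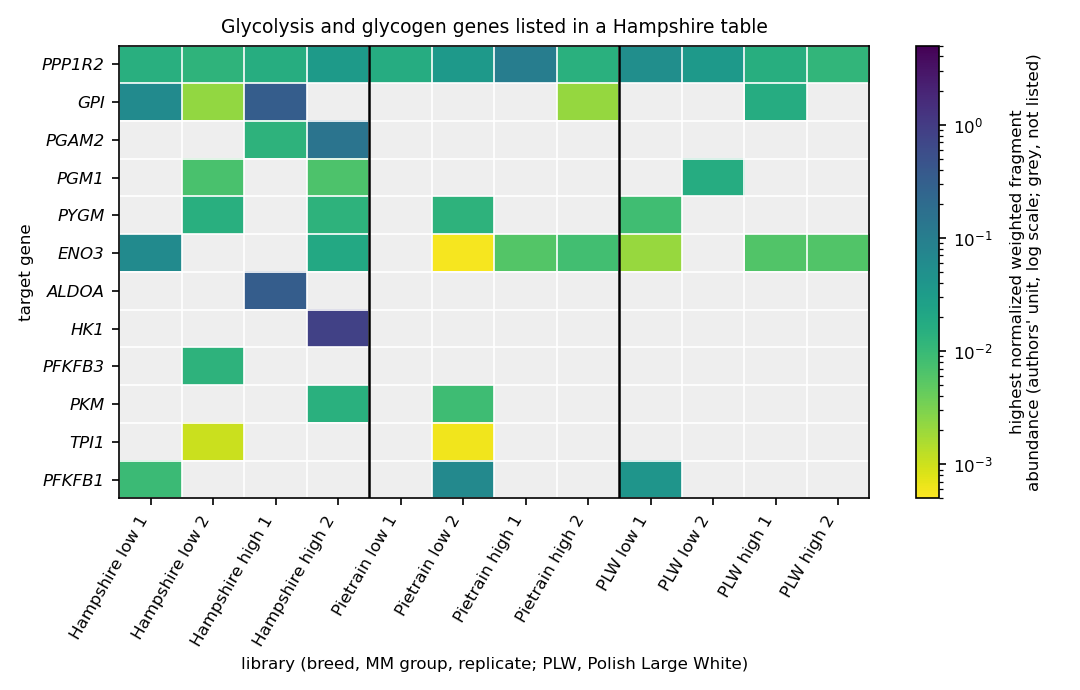
Glycolysis and glycogen genes listed in a Hampshire table (12 of the 13), by library. Colour is the highest normalized weighted fragment abundance (authors' unit, log scale) and grey is unlisted. PPP1R2 fills every column, PGAM2, ALDOA, HK1 and PFKFB3 have colour in Hampshire columns alone, and ENO3 is in 2 of 4 Hampshire and 6 of 8 other tables.

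Of the upper part of glycolysis, HK1, GPI, PFKFB1, PFKFB3, ALDOA and TPI1 were listed in Hampshire. GPI, glucose-6-phosphate isomerase, was in 3 of 4 Hampshire and 2 of 8 other tables (exact permutation p = 0.222, adjusted p = 0.964), but at a different position in each Hampshire table. Its normalized abundance was 0.0599 and 0.00220 in the low MM tables and 0.325 in high MM replicate 1, and it was unlisted in high MM replicate 2. The first of these equals that of ENO3 and the last that of ALDOA, aldolase A, in the same table and under the same unnamed small RNA, each with fragment abundance 20 and 25 matching positions. Only the miR-6782-3p position of low MM replicate 2 (chromosome 6, 44069053) was shared with other tables.

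HK1, hexokinase 1, was listed in Hampshire high MM replicate 2 alone, in 1 row of miR-181b with a normalized abundance of 0.835 and 10 matching positions. PFKFB1 and PFKFB3 make and break fructose 2,6-bisphosphate, the activator of phosphofructokinase. PFKFB1 had miR-6782-3p cuts of category 0 in low MM replicate 1, at 0.00935, and the same cut at X chromosome position 47799856 in 2 of the 8 others, at 0.0651 and 0.0411. PFKFB3 had a miR-505 cut of category 0 in low MM replicate 2 at 0.0128 and was in no other table. TPI1, triosephosphate isomerase, was in low MM replicate 2 at 0.00105, in category 4, a single fragment. The same position was in 1 Pietrain table at 0.000611.

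The lower part of the pathway held PGAM2, ENO3 and PKM. PGAM2, the muscle phosphoglycerate mutase, was in both high MM Hampshire tables and no other (p = 0.0909, adjusted p = 0.964, exact permutation). The miR-4334-3p cut at chromosome 18 position 48710761 was listed in 30 windows at 0.0129 in high MM replicate 1 and in 9 windows at 0.146 in high MM replicate 2, of category 0 in both. The windows all list this 1 cut, so their number is no measure of its abundance. The value in replicate 1 was under the median of all rows of that table, 0.0162, and the value in replicate 2 above its median, 0.0177. PGAM2 was the only member of the lists in category 0 or 1 in 2 Hampshire tables. All its rows were of the shallower class, and the low MM tables listed it in neither class. miR-4334-3p had rows on other transcripts in low MM replicate 1 and in 5 of the 8 other tables.

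ENO3, the muscle enolase, was in 2 of 4 Hampshire and 6 of 8 other tables (exact permutation p = 0.547, adjusted p = 0.964). A pair of miR-769-5p cuts on chromosome 12 (51958486 and 51958671) carried it in low MM replicate 1 at 0.00844 and in high MM replicate 2 at 0.0196. The cut at 51958486 was in 4 of the others, at 0.00594 to 0.00817. PKM, pyruvate kinase of muscle, was in high MM replicate 2 at 0.0146 and in 1 Pietrain table at another position. PDHA1, the E1 alpha subunit of pyruvate dehydrogenase, was in high MM replicate 1 at 0.0177, in category 4, with the same miR-184 cut in 2 of the 8 others.

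On the glycogen side PYGM and PGM1 were each in 2 Hampshire tables, besides PPP1R2 in all 4. PYGM, muscle glycogen phosphorylase, had the same miR-10383 cut on chromosome 2 (7420423) at 0.0149 in low MM replicate 2 and 0.0129 in high MM replicate 2, against 0.0131 and 0.00851 in the 2 other tables that list it. The presence did not pass the test (exact permutation p = 0.547, adjusted p = 0.964), and the values themselves were not tested. PGM1, phosphoglucomutase 1, was at 0.00709 in low MM replicate 2 and 0.00652 in high MM replicate 2, at different positions. The files name its identifier, ENSSSCG00000003812, PGM1, and the gene table names it EFCAB7, so this listing is uncertain.

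GYS1, muscle glycogen synthase, was in 2 of the 8 others and no Hampshire table, and GSK3B and PPP1CB were in 1 other table each. Of 21 genes for AMP-activated protein kinase and glucose uptake, INSR alone was listed, in 1 Pietrain table.

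Contractile and mitochondrial genes were listed in Hampshire and in the other breeds. Of 9 listed fast-fibre genes 7 were in Hampshire and 8 in the other tables, of 12 sarcomere and Z-disc genes 7 and 11, of 5 calcium-handling genes 4 and 5, and of 6 mitochondrially encoded genes 6 and 4. Over all targets the shares were 42.2% in Hampshire and 69.8% in the other tables, and 0 genes of each list passed the presence test. The median number of Hampshire tables was 3 for the mitochondrially encoded genes and 1 for the fast-fibre, sarcomere and calcium lists each. Of the 8 other tables the median was 5 for the mitochondrially encoded genes, 3 for the fast-fibre, 1.5 for the sarcomere and 2 for the calcium list. Over all targets the medians were 0 in Hampshire and 1 in the others. ATP2A1, the fast-fibre calcium pump, was in 3 of 4 Hampshire and 6 of 8 other tables. In Hampshire it was listed through 1 miR-4331-5p position, with a median of 1688 matching positions, and 4 of the 8 others list that cut. MYH2, a fast myosin heavy chain, was in 3 Hampshire and 2 other tables, at different positions in each Hampshire table. Other members went the other way. MYBPC2 and MYOZ1 of the fast-fibre list were in 0 Hampshire tables and in 4 and 3 of the 8 others. MYOM2 of the sarcomere list and PPP3CB of the calcium list were in 0 Hampshire tables and 4 others each. ND5 of complex I was in 3 Hampshire tables, not in high MM replicate 1, and in all 8 others, with let-7 and miR-98 cuts at mitochondrial position 14460 in 6 of the others.

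Of 5 listed slow-fibre genes Hampshire had 1, ATP2A2 in high MM replicate 2 at 2.09. Polish Large White also had 1, while Pietrain had all 5. Of all 1416 targets these breeds listed 597, 543 and 596, in that order. Of the 3 slow-fibre genes tested, 0 passed the presence test. DES, desmin of the intermediate filaments, was at 0.0489 in low MM replicate 2 and 0.0474 in high MM replicate 2, at the same position, and in 4 of 8 others. NEB, the thin-filament protein nebulin, had in high MM replicate 1 the same normalized abundance, 0.325, and small RNA as GPI and ALDOA. Markers of other cells were few in Hampshire and in the other tables alike. Hampshire had 1 adipocyte gene (LPL, high MM replicate 2) and 1 blood gene (CD14, low MM replicate 1), with no endothelial, fibroblast or Schwann cell marker. The 8 others had LPL in 1 Pietrain table, the blood gene ALAS2 in 1 Polish Large White table and the fibroblast gene COL3A1 in 4 tables. They also had no endothelial or Schwann cell marker. Over all targets the shares were 42.2% in Hampshire and 69.8% in the others.

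Between the MM groups of Hampshire, 39 genes were in both low MM tables and 14 in both high MM tables. Those in both tables of 1 group and neither of the other were 18 for low MM and 3 for high MM. The 3 were PGAM2, LAMA2, which encodes a laminin chain of the muscle basement membrane, and GANC, a neutral alpha-glucosidase. Of the 18, 10 rested on rows of the deeper class throughout, a class the high MM tables do not have. With 2 against 2 libraries the smallest two-sided exact p is 0.333, so no difference could pass. In the shallower class alone, which all 4 tables have, 21 genes were in 2 Hampshire tables, 7 in 3, and CA3, COX1 and CYTB in all 4.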

How the data were processed

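Each of the 12 libraries has a PAREsnip table, per the file headers. The submitters' processing notes name CASAVA 1.8.2 and FastQC. Aligner, genome build, annotation, row filter and small RNA set: not given in the sources used here. Chickens appear in the design text of the series, and pig in every sample's labels, which were followed. Titles and workbook tab names disagree on MM for the 4 Pietrain libraries, which does not touch the breed comparison.

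The authors deposited a category score (0 to 4), an alignment score and a fragment abundance, used as a score because 80.2% of its values of 20 or more are multiples of 20. The deposited p-value of a row is rounded and at most 0.05. Weighted and normalized abundance, also deposited, are treated as signal. The other deposited columns, names and positions, were read as labels. Matching positions are fragment abundance over weighted abundance. In Hampshire high MM replicate 2, 10 weighted values look like dates, and their normalized values were used.

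A target is any gene identifier in a row (1416 in all). A symbol was found for 1330, and 1198 matched the gene table. Named interactions were matched by microRNA, start and cleavage position (4026 windows), or by their sum (1101 cuts). Nuclear windows are listed on both strands, and positions of genes on either strand run along strand 1. Unnamed small RNAs are numbered per table and were not matched. Presence was tested over all placements of the Hampshire label with Benjamini-Hochberg adjustment, with code tested on simulated data, in Python 3.11.15 with pandas 2.3.3, numpy 2.4.6, scipy 1.17.1 and matplotlib 3.10.9. The members, gene lists and tests were chosen with earlier results of these data known. Genes were named by a rule: targets with a symbol in all 4 Hampshire tables, in 3 with at most 1 other, 12 further ones in at least 2 and no other (ordered by tables, then abundance, then alphabet), the listed glycolysis, glycogen and kinase genes, and the 3 leading members of the other lists. Some further genes were named after their values were seen, namely those in both tables of 1 MM group, list members in no Hampshire table, and markers, and the genes whose rows were described by matching positions. Some members of the lists are counted but not reported here by name. Alternatives left out each library, used 1 reference breed, permuted within MM or replicate number, and filtered rows. The limit of 100 matching positions and the exclusion of PPP1R2 were added after seeing the data.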

Additional observations from a re-analysis of the deposited data

Results flagged for a closer look

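Of 20 groups of per-library values examined, 1 held a library whose gap to its nearest neighbour exceeded Dixon's 95% limit, and chance gives about 1 in 20. The small RNA input, the total that small RNA abundance over its deposited normalized value gives, was 424 in Polish Large White high MM replicate 1, against 174 to 212 in the 7 other tables of the other breeds. The Hampshire tables had 192, 227, 241 and 249. Its part in the listings was not tested.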

How the results depend on the processing

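Presence of single genes gave 0 passing under all 25 alternatives run, as did presence of named interactions under its 24, which says little of stability. Against 1 breed (4 against 4 libraries) the smallest two-sided exact p is 0.0286, and 110 of 191 genes against Pietrain or 95 of 165 against Polish Large White would have to be fully split for any to pass. The difference in targets per table, Hampshire minus the others, had no stable sign. It was 8.88 as reported, -20.8 to 34.2 on leaving out each library, -3.75 against Pietrain alone, -11.1 with categories 0 to 2, -15.2 in the shallower class, -10.1 with at most 10 and -20.0 with at most 100 matching positions, and -17.4 with named microRNAs alone. None of these passed the exact permutation test. Target overlap (0.0118) passed without Hampshire high MM replicate 2 and with named microRNAs only, at 0.0252 (p = 0.0303, exact permutation), and ran from 0.00210 to 0.0331 on leaving out each library. The cause was not tested. The list share difference of 1.12 percentage points was 3.79 with categories 0 to 2, 0.496 in the shallower class, 0.398 with at most 10 and 3.23 with at most 100 matching positions, 1.76 with named microRNAs and 2.01 on strand 1, and 0.920 to 1.36 on leaving out each library. ENO3 presence turned to 0.25 with categories 0 to 2, and ACTA1 to -0.0833 in the shallower class. Permutation within replicate number (replicate block) left 0 genes passing and overlap at p = 0.311. The numbers tie no shared litter or day, and deviations of same-numbered libraries correlated at -0.0297 to 0.0462. With 4 against 8 libraries, unknown read depth and tables that list retained rows alone, absence of a gene is not measured absence.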
